A study of Rattus norvegicus with 35 samples.

Results

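The genes of the major milk proteins were followed in the mammary gland of female rats at weaning age. They were the caseins Csn2, Csn3, Csn1s1 and Csn1s2a, the whey proteins Lalba and Wap, and the milk mucin Glycam1. The array probes were chosen by gene name alone, older names included, so that Csn3 was found under Csn10 and Csn1s2a under Csng. This gave 7 probes, 1 per gene, among 41012 probes on the array. Of the 7 genes, 5 had a signal that could be tested between groups (Csn2, Csn3, Csn1s1, Lalba and Glycam1), among 16162 tested genes in all.

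Caseins are secreted as micelles by the luminal cells of the mammary alveoli. Lalba encodes alpha-lactalbumin, which joins the galactosyltransferase B4galt1 to make lactose synthase, and Wap encodes whey acidic protein. In late pregnancy and lactation, prolactin acts through its receptor, Jak2 and Stat5 to switch these genes on, together with glucocorticoid. Glycam1 has a separate second role, because high endothelial venules of lymph nodes make its product as a ligand for L-selectin on lymphocytes. The gland of a weanling female consists of epithelial ducts in a large fat pad and does not make milk.

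The animals were offspring of Sprague-Dawley dams, and RNA came from the left abdominal mammary gland on postnatal day 21. The dams received bisphenol A (BPA), an industrial chemical with estrogen-like activity, by gavage on gestational days 10 to 21. The dose was 25 or 250 µg per kg body weight per day (groups BPA25 and BPA250). Genistein, a soy isoflavone, was added to the chow of some BPA dams at 250 mg per kg (BPA25+genistein, BPA250+genistein), and indole-3-carbinol (I3C), a compound from cabbage-family plants, at 2000 mg per kg (BPA25+I3C, BPA250+I3C). The negative controls received no BPA and neither diet. Each of the 7 groups held 5 animals with 1 array each, and the offspring are described as coming from different litters. There was no group with genistein or I3C alone, so a diet can only be compared at a fixed BPA dose. RNA of the whole gland was measured, with fat, vessels and any adjoining muscle or lymph node. A lower level in such bulk RNA can mean fewer milk-gene-expressing cells or less RNA per cell, and these cannot be told apart.

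The arrays lay on 10 slides. The 4 arrays of slide 3 (replicate 2 of control, BPA25, BPA250 and BPA25+genistein) stood apart, with 93.4% to 96.4% of probes well above background against 31.9% to 49.8% on the 25 arrays outside slides 3, 4 and 5, and 65.2% to 72.2% on the 6 arrays of slides 4 and 5. The 75th percentile of the signal ran from 375 to 876 intensity units on slide 3 and from 30.4 to 247 on those 25 arrays. Levels are therefore given as log2 of the signal relative to each array's own 75th percentile, so that 0 is the level of a fairly bright probe of that array. Levels of different probes are not set against each other, because probes differ in binding. No 2 arrays were duplicates, with correlations between arrays from 0.735 to 0.984. Fat was measured on every array: all 9 adipocyte markers were tested and their mean level lay between 3.16 and 6.21. Muscle was measured as well, with a mean of the skeletal muscle markers from 3.03 to 5.82 in controls. The epithelium was measurable too, with 12 of 16 luminal and 6 of 9 basal markers above the filter on dim probes.

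The sequences behind the measurements of the best measured casein-locus and whey genes are given first. A pair of the array's 60-base probes are printed, those of Csn2 and Lalba, in lower case with no part marked. In the rn3 build the array design places the Csn2 probe at chr14:21853182-21853241 on the plus strand. The Lalba probe lies at chr7:137298486-137298973 on the minus strand, over a stretch longer than the probe, so that it crosses an intron. The Csn1s1 probe lies at chr14:21869236-21869295 on the minus strand.
Csn2 probe: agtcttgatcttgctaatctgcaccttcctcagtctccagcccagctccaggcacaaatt
Lalba probe: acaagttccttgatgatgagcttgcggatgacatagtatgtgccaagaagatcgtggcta
The caseins sit together in 1 cluster, in the order Csn3, Fdcsp, Odam, Prr27, Csn1s2b, Csn1s2a, Stath, Csn2 and Csn1s1, in the RefSeq annotation of the GRCr8 assembly (a non-coding gene and a pseudogene between Odam and Prr27 are left out here).

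Promoter sequences were available from RefSeq (GRCr8) for 7 of 7 genes. They are shown for 3 caseins of that cluster and for Lalba, because prolactin signalling acts on them by textbook knowledge, and Csn1s1, Csn2 and Lalba gave signal on most arrays while Csn1s2a gave it on 0. Each is the 250 bases before the annotated start. The palindromic motif TTCNNNGAA, the core of a Stat5 binding element, was searched on both strands and is in capitals. The windows are chr14:20638850-20639099 on the minus strand (Csn1s1), chr14:20601574-20601823 on the plus strand (Csn2), chr14:20574472-20574721 on the minus strand (Csn1s2a) and chr7:131507073-131507322 on the minus strand (Lalba).
Csn1s1 promoter: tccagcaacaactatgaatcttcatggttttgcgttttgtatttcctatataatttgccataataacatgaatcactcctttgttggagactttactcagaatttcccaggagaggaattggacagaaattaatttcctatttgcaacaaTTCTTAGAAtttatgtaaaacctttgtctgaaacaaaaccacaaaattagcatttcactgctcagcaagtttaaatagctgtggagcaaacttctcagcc
Csn2 promoter: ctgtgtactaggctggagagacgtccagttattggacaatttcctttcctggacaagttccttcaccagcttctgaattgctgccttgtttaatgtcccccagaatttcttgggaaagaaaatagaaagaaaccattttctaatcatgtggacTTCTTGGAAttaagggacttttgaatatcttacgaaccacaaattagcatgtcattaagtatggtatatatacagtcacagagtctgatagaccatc
Csn1s2a promoter: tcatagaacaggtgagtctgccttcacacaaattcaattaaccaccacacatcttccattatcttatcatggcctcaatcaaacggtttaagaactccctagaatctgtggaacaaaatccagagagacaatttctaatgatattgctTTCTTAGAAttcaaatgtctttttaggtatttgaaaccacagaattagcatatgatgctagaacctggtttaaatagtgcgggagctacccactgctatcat
Lalba promoter: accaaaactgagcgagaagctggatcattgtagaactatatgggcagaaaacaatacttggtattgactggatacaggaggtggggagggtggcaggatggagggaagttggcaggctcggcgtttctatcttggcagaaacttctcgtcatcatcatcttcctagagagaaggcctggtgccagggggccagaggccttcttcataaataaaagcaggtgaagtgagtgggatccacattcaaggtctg
The motif stood 100 to 92 bases before the start in Csn1s1, 97 to 89 in Csn2 and 102 to 94 in Csn1s2a, so the 3 caseins hold it at almost the same place. Glycam1 held it 175 to 167 bases before its start. No match was found in this window for Csn3, Lalba or Wap. In all, 4 of the 7 promoters had a match, against 7.67% of 33469 promoters of the same length. A match is a description of the letters only.

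The first question was which milk protein genes could be seen at all in the weanling gland. Signal was well above background on 34 of 35 arrays for Csn2, on 33 for Csn1s1, on 33 for Lalba and on 28 for Glycam1. Csn3 was seen on 14 arrays, all 4 of slide 3 and 10 of the other 31. Wap was well above background on 1 array, replicate 2 of BPA25 on slide 3, and Csn1s2a on 0. For Wap and Csn1s2a no group comparison could be made, since in every comparison both groups lay at or near background. Their levels ran from -4.87 to -1.71 and from -5.87 to -2.1, and at this signal no difference was detectable. At this age the probes for alpha-s1-casein, beta-casein and alpha-lactalbumin thus gave signal on most arrays, and the probe for kappa-casein on fewer. Whey acidic protein and the Csn1s2a casein were not measured. Whether the signal of each probe came from its own gene alone was not tested.

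**Figure D1:**
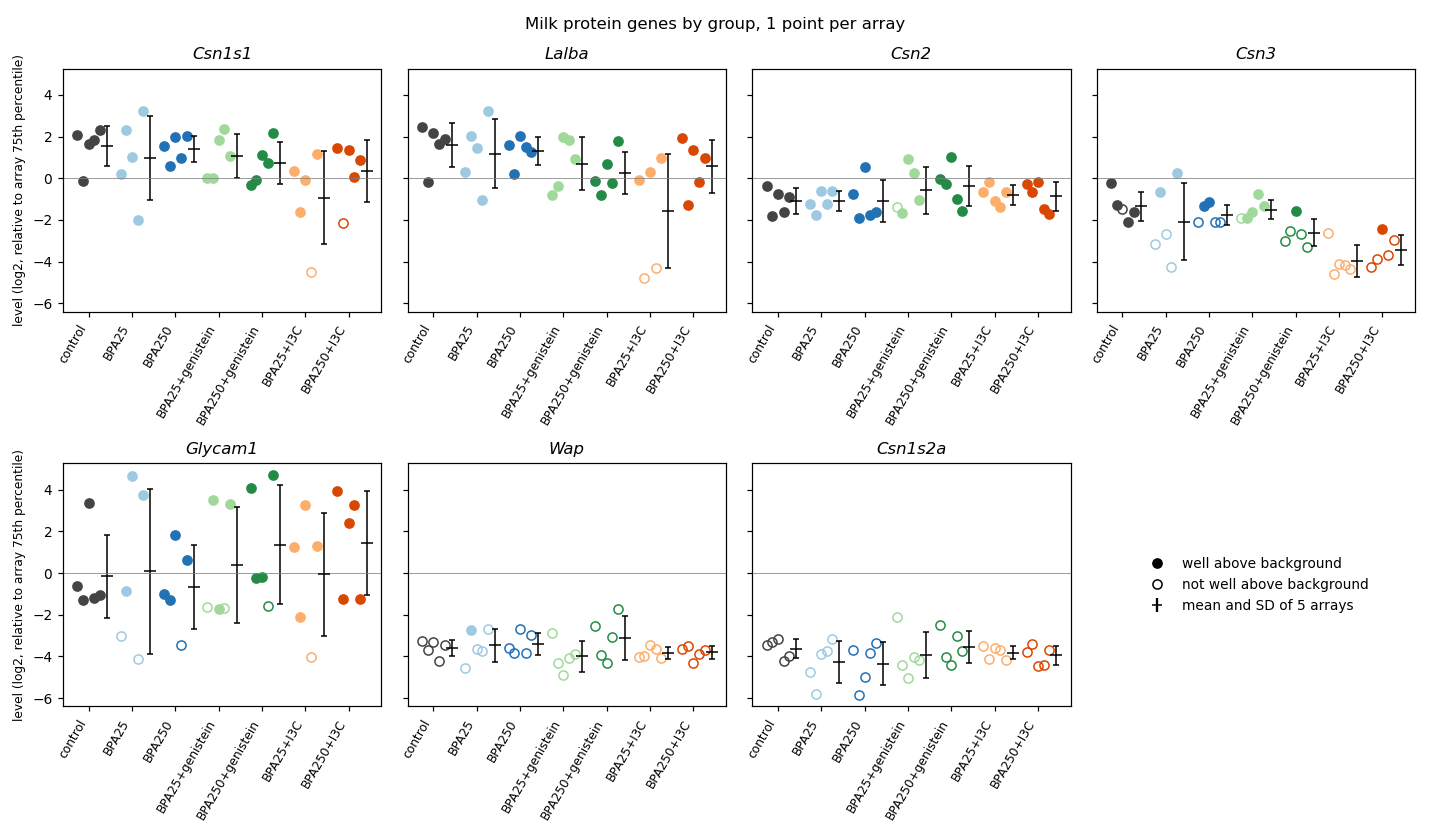
Level of each milk protein gene (vertical axis, log2, 0 at the 75th percentile of the array) by group, 1 point per array, filled where the signal was well above background, with the mean and SD of 5 arrays beside each group. Csn1s1 and Lalba are lowest on a few arrays of BPA25+I3C, BPA250+I3C and BPA25, Csn2 stays between -1.9 and 1, and Wap and Csn1s2a are open points with 1 exception.

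Csn1s1, the gene of alpha-s1-casein, ran from -4.49, not well above background, to 3.2 over the 35 arrays. In controls its levels were 2.09, -0.15, 1.63, 1.85 and 2.3 (mean 1.54 ± 0.98, SD, n = 5). In BPA25 they were 0.21, 2.33, 1, -2 and 3.2, and in BPA250 1.53, 0.59, 1.98, 0.97 and 2.02. All controls but the array on slide 3 lay within 1 log2 unit of each other, while BPA25 held both the highest and the third lowest level of the study. In BPA25+genistein the levels were 0.01, 0, 1.81, 2.37 and 1.05, and in BPA250+genistein -0.33, -0.07, 1.12, 0.73 and 2.17. In BPA25+I3C they were 0.36, -1.61, -0.07, -4.49 and 1.17 (mean -0.93 ± 2.23), and in BPA250+I3C 1.44, -2.15, 1.37, 0.07 and 0.89 (mean 0.32 ± 1.49). The signal of -4.49 and that of -2.15 were not well above background. All I3C arrays at 25 µg lay below 4 of the 5 controls, and the groups overlapped through the slide 3 control. Ordered by mean, control (1.54) was followed by BPA250 (1.42), BPA25+genistein (1.05), BPA25 (0.95), BPA250+genistein (0.72), BPA250+I3C (0.32) and BPA25+I3C (-0.93). Each step in this order was smaller than the SD of at least 1 of its neighbours.

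Lalba, the gene of alpha-lactalbumin, ran from -4.79, not well above background, to 3.22. Its levels in controls were 2.44, -0.19, 2.16, 1.66 and 1.87 (mean 1.59 ± 1.04). In BPA25 they were 0.29, 2.03, 1.43, -1.05 and 3.22, and in BPA250 1.58, 0.22, 2.04, 1.49 and 1.24. The lowest control was again the array on slide 3. In BPA25+genistein the levels were -0.83, -0.38, 1.96, 1.82 and 0.94, and in BPA250+genistein -0.13, -0.83, 0.67, -0.25 and 1.78. In BPA25+I3C they were -0.08, -4.79, 0.3, -4.3 and 0.95 (mean -1.58 ± 2.73), with 2 of 5 arrays not well above background. In BPA250+I3C they were 1.92, -1.27, 1.37, -0.16 and 0.97 (mean 0.57 ± 1.28). The mean of BPA25+I3C was thus set by a pair of arrays not well above background, next to 3 arrays inside the range of the other groups.

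Csn3, the gene of kappa-casein that coats the micelle surface, was the dimmest of the tested genes in terms of detection. It passed the filter only through control and BPA25+genistein, each with signal on 4 of 5 arrays, so that these groups had to stand high. In both groups these arrays included replicate 2 on slide 3, where 93.4% to 96.4% of all probes were well above background. BPA250+genistein, BPA25+I3C and BPA250+I3C had no array on slide 3, so the detection counts of Csn3 also differ by slide. Its control levels were -0.24, -1.31, -1.48, -2.11 and -1.64 (mean -1.36 ± 0.69), and those of BPA25+genistein -1.89, -1.89, -1.64, -0.76 and -1.34. In BPA25 they were -3.17, -0.66, -2.66, -4.25 and 0.24, with signal on 2 arrays, and in BPA250 -2.09, -1.35, -1.13, -2.08 and -2.12, also with signal on 2. BPA250+genistein stood at -3, -2.51, -1.56, -2.69 and -3.28, with signal on 1 array. BPA25+I3C stood at -2.63, -4.61, -4.1, -4.16 and -4.36, with signal on 0 arrays, and BPA250+I3C at -4.24, -3.9, -2.42, -3.7 and -2.98, with signal on 1. All 10 I3C arrays lay below all 5 controls, a group through which the gene was kept. BPA250+I3C also lay below all BPA250 arrays, while both I3C groups overlapped BPA25, whose arrays covered almost the full range. Most of these I3C values, and some of those of BPA250, were not well above background. How many of all genes separate these groups was not counted, so no result is drawn from this order.

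The levels of Csn2, the gene of beta-casein, stayed between -1.9 and 1, a 7.46-fold range. Control levels were -0.37, -1.83, -0.75, -1.61 and -0.89 (mean -1.09 ± 0.61). Those of BPA25+I3C, where Csn1s1 and Lalba had their lowest arrays, were -0.66, -0.17, -1.09, -1.4 and -0.65 (mean -0.79 ± 0.47). The Csn2 values of that group lay inside the control range but for 1 array above it. The 3 highest levels, 1, 0.92 and 0.56, belonged to the 3 arrays of slide 5 (BPA250+genistein, BPA25+genistein and BPA250), and the 4 arrays of slide 3 lay between -1.9 and -1.65. Slide accounted for 73.7% of the variance of Csn2 and group for 11.3%, against medians of 65.4% and 12.9% over all genes without missing values. The same shares were 19.6% and 26.3% for Csn1s1, 28.6% and 34.5% for Lalba and 25.4% and 56% for Csn3. These shares were each computed alone, with no allowance for slide having more levels than group. Csn2 thus followed the slide as the typical gene did, and the other milk genes followed it less.

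**Figure D2:**
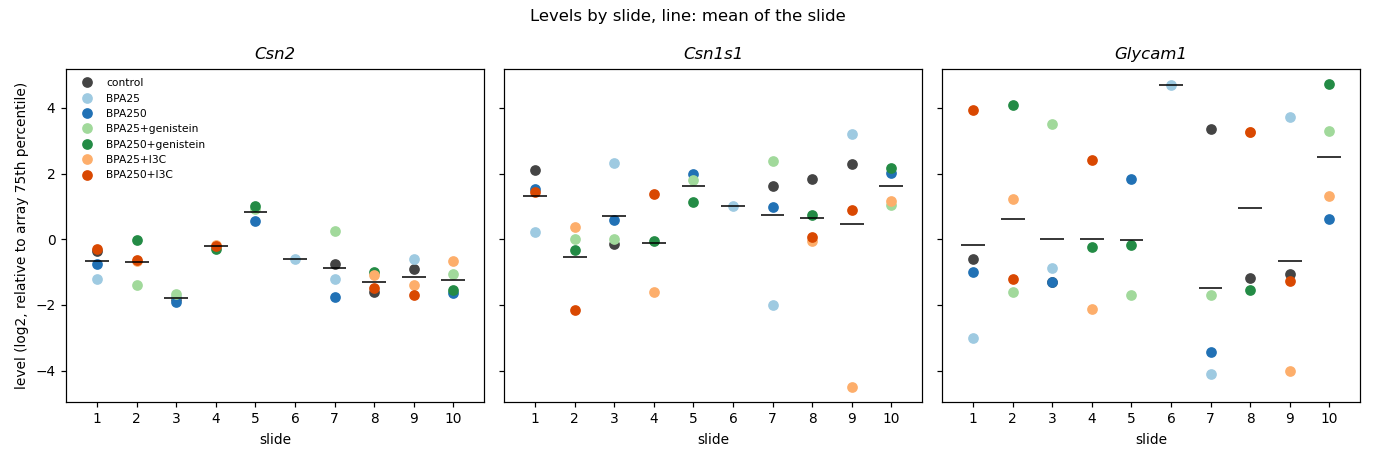
Levels of Csn2, Csn1s1 and Glycam1 (vertical axis, log2, 0 at the 75th percentile of the array) by slide (horizontal axis), 1 point per array coloured by group, with a line at each slide's mean. The Csn2 points of a slide lie close together, with slide 5 highest, while Csn1s1 and Glycam1 spread widely within most slides.

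Glycam1, the mucin gene, ran from -4.11, not well above background, to 4.73. In controls it stood at -0.61, -1.3, 3.35, -1.18 and -1.07 (mean -0.16 ± 1.98). In BPA25 its levels were -3, -0.88, 4.68, -4.11 and 3.73, and in BPA250+genistein 4.09, -0.24, -0.17, -1.56 and 4.73. In BPA250+I3C they were 3.93, -1.22, 2.42, 3.27 and -1.26 (mean 1.43 ± 2.49). The other groups ran from -3.44 to 1.83 (BPA250), -1.7 to 3.52 (BPA25+genistein) and -4.02 to 3.28 (BPA25+I3C). Each group held arrays with a level above 0 and arrays well below it, and all groups overlapped. Group accounted for 7.91% of its variance.

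The second question was whether prenatal BPA, with or without a diet, changed these genes. In an F test over the 7 groups (limma, Benjamini-Hochberg adjustment over all tested genes, threshold 0.05), 0 of the 5 tested milk genes passed, beside 0.00619% of all genes (1 gene). Before adjustment the same limma test gave 0.000124 for Csn3 (adjusted p = 0.334) and 0.0236 for Lalba (adjusted p = 0.963), so 2 of 5 genes were under 0.05 unadjusted, beside 4.03% of all genes. The p of Csn3 carries the filter described above. With slide as a random block, 1 of the 5, Csn3, passed (adjusted p = 0.0361), beside 0.841% of all genes (136 genes). With normexp background correction the unadjusted F test p of Csn3 was 0.0758.

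BPA alone moved none of the 5 genes past the threshold. For BPA25 against control 0 of 5 passed, beside 0% of all genes, and 0 of 5 had an unadjusted p under 0.05, beside 2%. For BPA250 against control the counts were 0 and 0 of 5, beside 0% and 0.99%, and for BPA250 against BPA25 0 and 0 of 5, beside 0% and 1.68%. The log2 fold change of Csn1s1 was -0.59 ± 0.85 (SE, n = 5 against 5, 95% interval -2.33 to 1.14) in BPA25 and -0.12 ± 0.85 (-1.86 to 1.61) in BPA250. That of Lalba was -0.40 ± 0.89 in BPA25 and -0.27 ± 0.89 in BPA250, and that of Csn3 -0.74 ± 0.55 and -0.40 ± 0.55. The signs of several of these small values turned with the scaling or with 1 array left out, as listed in the closing section. Within the 4 slides that held both a control and a BPA25 array, Csn1s1 was higher with BPA25 on 2 and lower on 2. The intervals are wide, and their reach differed by gene. In BPA25 against control they were -3.05 to 3.54 for Glycam1, -2.21 to 1.40 for Lalba, -0.99 to 1.01 for Csn2 and -1.87 to 0.39 for Csn3. For Glycam1 these data leave room for changes of several fold in either direction.

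Genistein added to BPA also moved none of the 5 past the threshold. For BPA25+genistein against BPA25 0 of 5 passed, beside 0.00619% of all genes, and 0 of 5 had an unadjusted p under 0.05, beside 4.73%. For BPA250+genistein against BPA250 the counts were 0 and 0 of 5, beside 0% and 4.21%. Csn2 differed by 0.72 ± 0.49 (-0.28 to 1.72) between BPA250+genistein and BPA250, its largest value in any of the 7 comparisons of single groups, and its smallest was -0.02 ± 0.49 between the BPA doses. Csn3 stood 0.59 ± 0.55 higher with genistein at the low BPA dose and at -0.85 ± 0.55 at the high dose. The test of that difference between doses did not pass (-1.44 ± 0.78, adjusted p = 1.0, 0 of 5 genes beside 0%). At an unadjusted p under 0.05 the count was also 0 of 5, beside 1.16%.

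Between BPA25+I3C and BPA25, Lalba, Csn3 and Csn1s1 had lower means with I3C, and none of these differences passed. The level of Lalba was lower by 2.77 on the log2 scale (log2 fold change -2.77 ± 0.89, 95% interval -4.57 to -0.97, unadjusted p = 0.0037, limma adjusted p = 0.855). Csn3 differed by -1.88 ± 0.55 (-3.00 to -0.75, unadjusted p = 0.00182, limma adjusted p = 0.684) and Csn1s1 by -1.88 ± 0.85 (-3.61 to -0.14, unadjusted p = 0.0349, limma adjusted p = 0.999). Thus 0 of 5 genes passed, beside 0.0124% of all genes, and 3 of 5 had an unadjusted p under 0.05 with a lower level, beside 1.72% of all genes lower and 4.32% in either direction. The median over the 5 genes was -1.88, beside 0.13 over all tested genes. Csn3 had no signal in BPA25+I3C, so that its level there is only a bound. Set so, it was 1.56-fold lower than the mean of BPA25, where 2 of 5 arrays gave signal. The other BPA25 arrays (-3.17, -2.66 and -4.25) entered that mean with values not well above background, so 1.56-fold is no sure minimum. Such a bound sets the mean of the bright group against, for each dim array, the higher of its own value and the lowest signal counted as well above background.

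At the higher BPA dose the I3C differences had the same sign for these 3 genes. Csn3 differed by -1.69 ± 0.55 (-2.82 to -0.57, unadjusted p = 0.00436, limma adjusted p = 0.766), Csn1s1 by -1.10 ± 0.85 (-2.83 to 0.64) and Lalba by -0.75 ± 0.89 (-2.55 to 1.06). Here 0 of 5 genes passed, beside 0% of all genes, and 1 of 5 had an unadjusted p under 0.05, beside 4.32%. The test of a different I3C effect between the doses gave 0 of 5 genes, beside 0%, and 0 of 5 unadjusted, beside 3.16%, with 2.02 ± 1.25 (-0.53 to 4.57) for Lalba. Glycam1 stood 2.09 ± 1.62 higher with I3C at this dose (-1.21 to 5.38), its largest value, and its smallest was -0.75 ± 1.62 between the BPA doses.

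**Figure D3:**
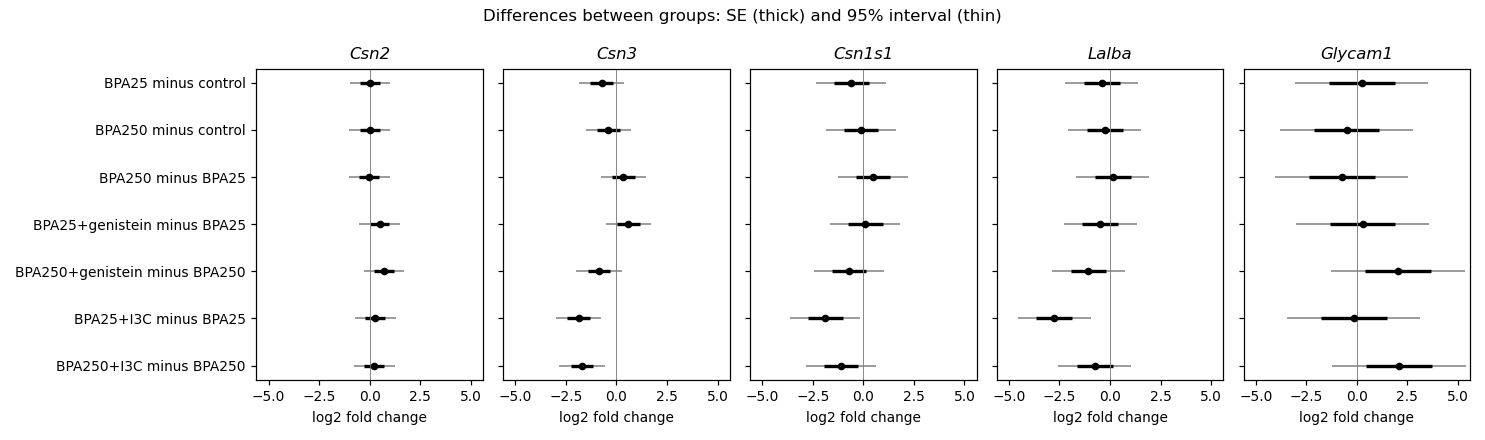
Log2 fold change (horizontal axis) of the 5 tested genes in the 7 comparisons of single groups (rows), with the SE as a thick bar and the 95% interval as a thin bar. Csn3, Csn1s1 and Lalba lie to the left of 0 in both I3C rows, Csn2 stays near 0, and the intervals of Glycam1 are the widest.

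The combined groups were also set against the controls, which all 4 comparisons share, as an addition made after the data were seen. Csn3 passed the filter only through the controls and BPA25+genistein, which therefore had to stand high, so its differences from control carry that selection and support nothing by themselves. The difference of BPA25+I3C from control was -2.62 ± 0.55 in Csn3 (unadjusted p = 4.03e-05, limma adjusted p = 0.345), -3.17 ± 0.89 in Lalba (unadjusted p = 0.00109, limma adjusted p = 1.0) and -2.47 ± 0.85 in Csn1s1 (unadjusted p = 0.00666, limma adjusted p = 1.0). This is 0 of 5 genes passing, beside 0%, and 3 of 5 unadjusted (2 of them not subject to that selection), beside 1.57%. Against the controls, 4 of 5 of which gave Csn3 signal, the bound for Csn3 in the main processing was 2.6-fold lower. That bound carries the same selection and supports nothing by itself. Over the alternatives the log2 difference of Csn3 between BPA25+I3C and control ran from -2.82 to -0.64. In BPA250+I3C the differences were -2.09 ± 0.55 for Csn3 (unadjusted p = 0.000625, limma adjusted p = 0.226), -1.22 ± 0.85 for Csn1s1 and -1.02 ± 0.89 for Lalba, with 0 of 5 passing beside 0% and 1 of 5 unadjusted beside 3.63%. With slide as a random block Csn3 passed here (limma adjusted p = 0.0483), beside 0.538% of all genes (87 genes), again against a group through which it was kept and with signal on 1 of 5 arrays of BPA250+I3C. BPA250+genistein had 0 of 5 passing, beside 0%, and 1 of 5 unadjusted, Csn3 at -1.25 ± 0.55 (unadjusted p = 0.0307, limma adjusted p = 0.999), beside 4.26%. For BPA25+genistein both counts were 0 of 5, beside 0% and 1.68%.

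Few slides held both arms of an I3C comparison. Slide 9 alone held BPA25 and BPA25+I3C, and there the I3C array was lower by -7.69 in Csn1s1, -7.52 in Lalba and -4.4 in Csn3, against -7.75 in Glycam1 and -0.8 in Csn2. That I3C array, replicate 4, was not well above background for Csn1s1, Lalba, Csn3 or Glycam1, so these are differences from a level at background and no measured folds. Slide 1 alone held BPA250 and BPA250+I3C, and there the I3C array differed by 0.34 in Lalba, -0.09 in Csn1s1, -2.15 in Csn3, 4.94 in Glycam1 and 0.44 in Csn2. The Csn3 signal was not well above background on either of these arrays. On the 2 slides with a control and a BPA25+I3C array, Csn1s1 was lower on both (-6.79 and -1.92), as were Lalba (-6.17 and -1.36) and Csn3 (-2.52 and -1.99). On the 3 slides with a control and a BPA250+I3C array, Csn3 was lower on all 3 (-4 to -1.34). No I3C array of these slides gave Csn3 signal. Leaving out 1 array moved the difference between BPA25+I3C and BPA25 from -2.61 (without BPA25 replicate 4) to -0.99 (without BPA25+I3C replicate 4) for Csn1s1. For Lalba it ran from -3.40 (without BPA25+I3C replicate 5) to -1.97 (without BPA25+I3C replicate 2), and for Csn3 from -2.41 (without BPA25 replicate 4) to -1.29 (without BPA25 replicate 5). In all 35 fits that left out 1 array these 3 differences kept their sign and none passed.

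Levels of the luminal epithelium markers, from the cells that make milk, are given beside these differences. The mean level of the 12 tested luminal markers of 16 (keratins, claudins, Epcam, Cdh1 and others) ran from -0.43 to 0.7 in controls (median -0.04) and from -2.36 to 0.9 in BPA25 (median -0.17). It ran from -3.38 to -0.67 in BPA25+I3C (median -1), from -1.81 to 0.08 in BPA250+I3C (median -1.02) and from -0.89 to 0.42 in BPA250 (median -0.31). The genistein groups lay between, at medians of -0.47 and -0.59. Between BPA25+I3C and BPA25, 0 of 12 markers passed, beside 0.0124% of all genes, and 5 had an unadjusted p under 0.05 with a lower level, beside 1.72%. In all, 11 of the 12 had a lower mean and 1, Cldn3, a higher one. Of the luminal markers not tested, Elf3 gave signal on 9 arrays, Kit on 14 and Foxa1 on 4, and 1 was not matched to a probe. The mean of the basal markers ran from -0.47 to 0.69 in controls and from -1.82 to 0.54 in BPA25+I3C. The mean of the skeletal muscle markers, 9 tested of 10, ran from 3.03 to 5.82 in controls, from 1.33 to 5.08 in BPA25, from -2.62 to 5.43 in BPA25+I3C and from -2.88 to 2.1 in BPA250+I3C. Between BPA25+I3C and BPA25, 9 of 9 muscle markers were lower at an unadjusted p under 0.05, beside 1.72% of all genes, and 1 of them passed, beside 0.0124%. The part of these markers in the milk gene differences was not tested.

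The third question was which milk genes varied together over the 35 arrays of all groups. Group means were not removed, so differences between groups enter these relations. Csn3 was well above background on 14 of the 35 arrays, and its relations rest largely on values near background. Csn1s1 and Lalba varied together (Pearson r = 0.91, Spearman rho = 0.915). Csn3 followed both, with r = 0.652 (rho = 0.579) for Csn1s1 and r = 0.61 (rho = 0.553) for Lalba. These were the 3 of 10 pairs that passed (adjusted permutation p of r 5e-05 for the first pair and for Csn3 with Csn1s1, 0.000133 for Csn3 with Lalba, with 100000 permutations, two-sided, the smallest p possible being 1e-05). The pairs of Csn2 did not pass, with r of 0.101 for Csn3, 0.169 for Csn1s1, 0.13 for Lalba and 0.134 for Glycam1 on all arrays (adjusted permutation p from 0.551 to 0.631). Whether the relations of beta-casein differ from those of the other genes was not tested. With each slide's mean removed (34 arrays) r was 0.924 for Csn1s1 with Lalba, 0.74 for Csn3 with Csn1s1 and 0.675 for Csn3 with Lalba. Lalba with Glycam1 also passed in that setting (r = 0.496, adjusted permutation p = 0.0372), and Csn2 with Glycam1 passed by rho (0.492, adjusted permutation p = 0.0306) and not by r (0.409, adjusted permutation p = 0.112). Without the 2 arrays farthest from the median of the second gene of each pair (Lalba, Csn1s1 and Lalba) r was 0.918, 0.629 and 0.516. Without slide 3 it was 0.907, 0.689 and 0.65. The pairs were chosen after the data were seen.

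**Figure D4:**
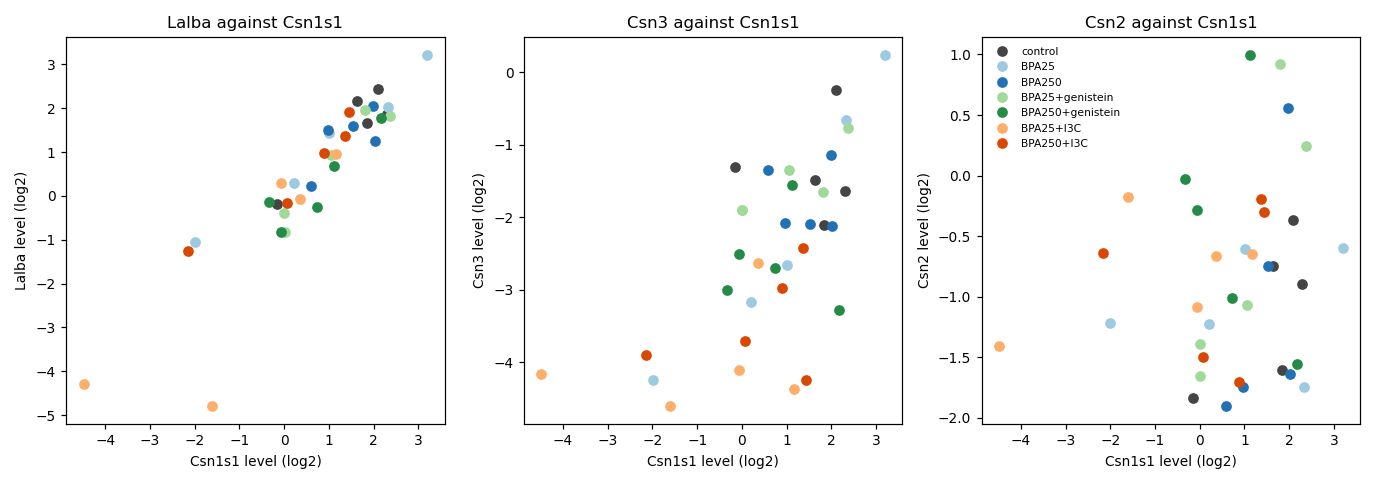
Levels of Lalba, Csn3 and Csn2 (vertical axes, log2) against that of Csn1s1 (horizontal axis, log2), 1 point per array coloured by group. The Lalba points form a narrow band (r = 0.91), those of Csn3 a wider one (r = 0.652), and those of Csn2 no band (r = 0.169).

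The same genes were set against the mean level of 5 marker lists, 25 relations in all, of which 9 passed. Group means were again not removed, and the limit of Csn3 near background holds here too. With the luminal epithelium list r was 0.879 for Csn1s1 (rho = 0.728), 0.839 for Lalba (rho = 0.765) and 0.793 for Csn3 (rho = 0.798), each with an adjusted permutation p of 6.25e-05. With each slide's mean removed these were 0.916, 0.907 and 0.821, and without the 2 arrays farthest from the list's median 0.78, 0.783 and 0.808. Csn2 did not pass (r = 0.232, rho = 0.201, adjusted permutation p = 0.324). With the basal list r was 0.61 for Csn1s1 (rho = 0.487), 0.573 for Lalba (rho = 0.535), 0.553 for Csn3 (rho = 0.528) and 0.414 for Csn2 (rho = 0.405, adjusted permutation p = 0.0394). The relation of Csn2 did not pass with slide means removed (r = 0.346, adjusted permutation p = 0.267) or without the 2 farthest arrays (r = 0.416, adjusted permutation p = 0.0515). It passed without slide 3 (r = 0.465, adjusted permutation p = 0.0206). No relation with the skeletal muscle list passed, with r from -0.132 to 0.218, nor did one with the adipocyte list by r, where Csn3 had the lowest value (r = -0.352, rho = -0.443, adjusted permutation p of r = 0.0829 and of rho = 0.0249). Without slide 3, Csn2 had an r of -0.567 with the adipocyte list (rho = -0.582, adjusted permutation p = 0.00312), against 0.165 on all arrays (rho = -0.113) and -0.186 with slide means removed (adjusted permutation p = 0.417).

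Glycam1 varied with markers of another cell type. Its r with the lymphoid list (5 tested of 14 T- and B-cell markers) was 0.839 (rho = 0.834, adjusted permutation p = 6.25e-05), 0.847 with slide means removed and 0.813 without the 2 farthest arrays. With the luminal list it was 0.36 (rho = 0.266, adjusted permutation p = 0.0822). The lymphoid mean ran from -0.76 to 1.34 in controls, from -2.51 to 2.03 in BPA25 and from -1.68 to 1.22 in BPA250+I3C. Of the markers of high endothelial venules, Ccl21 and Madcam1 were tested, and their mean lay between -0.03 and 2.35 on all arrays. Fut7 gave signal on 8 arrays, Sele on 5 and Chst4 on 2. Csn1s1 also had an r of 0.411 with the lymphoid list (adjusted permutation p = 0.0394), with a rho of 0.197 (adjusted permutation p = 0.428). That relation did not pass without the 2 farthest arrays (r = 0.271, adjusted permutation p = 0.317) or with slide means removed (r = 0.483, adjusted permutation p = 0.0907). Without slide 3 it passed by r (0.459, adjusted permutation p = 0.0206) and not by rho (0.286, adjusted permutation p = 0.197). With slide means removed, Csn2 (r = 0.557, rho = 0.537) and Lalba (r = 0.501, rho = 0.4) passed by r with the lymphoid list, each with an adjusted permutation p of 0.0345 (for Lalba rho did not pass, adjusted permutation p = 0.0913), against r of 0.135 and 0.347 on all arrays, which did not pass.

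**Figure D5:**
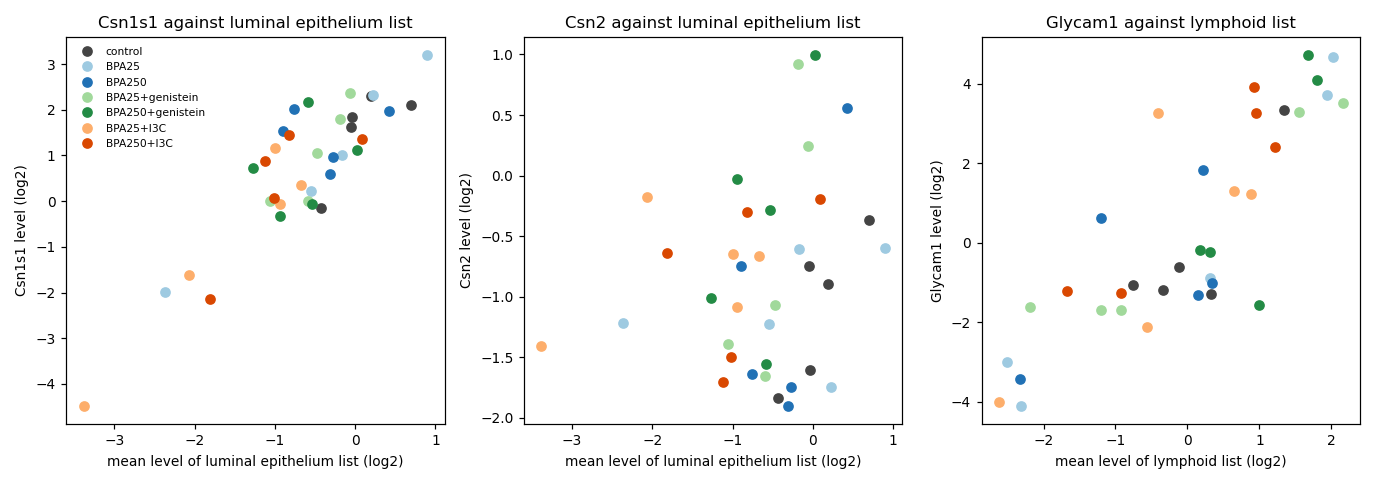
Levels of Csn1s1 and Csn2 (vertical axes, log2) against the mean level of the luminal epithelium list, and of Glycam1 against that of the lymphoid list (horizontal axes, log2), 1 point per array coloured by group. Csn1s1 rises with the luminal list (r = 0.879), Csn2 shows no clear relation to it (r = 0.232), and Glycam1 rises with the lymphoid list (r = 0.839).

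The genes most like each milk gene were taken over the 31 arrays outside slide 3, by Spearman rho among all tested genes, as a description. These arrays lie on several slides, and arrays of 1 slide can deviate together in many genes. For Csn1s1 these were RGD1310384 (0.915), Lalba (0.907), the water channel gene Aqp5 (0.869), the epithelial protease gene Prss8 (0.869) and RGD1561232 (0.858). For Lalba they were Lcn2, the gene of lipocalin 2 (0.921), Csn1s1 (0.907), Prss8 (0.9), Wfdc2 (0.887) and Fxyd3 (0.877). For Csn3 they were LOC689210 (0.836), a transcript with no gene symbol (0.804), the transcription factor gene Tfap2b (0.803), Kdf1 (0.801) and Col9a2 (0.8). For Glycam1 they were the T-cell receptor chain gene Cd3g (0.883), the chemokine gene Ccl19 (0.874), a transcript with no gene symbol (0.872), Sit1 (0.871) and Phf11b (0.869). For Csn2 they were the neuropeptide gene Npvf (0.904), the receptor gene Fgfr3 (0.867), the transcription factor gene Sox21 (0.857) and a pair of transcripts with no gene symbol (0.863 and 0.859). With slide means removed the values for Npvf and Fgfr3 were 0.742 and 0.715. None of the 5 closest genes of Csn2 was a milk gene or belonged to a marker list.

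The machinery that acts on milk genes was measured alongside, from 3 lists. Of 17 prolactin signalling genes 13 were tested, of 22 genes of other milk products 11, and of 11 genes of lactose synthesis and milk ion transport 6. In the F test 0 of these genes passed. In the prolactin list the smallest unadjusted p values belonged to Cish (0.343) and Socs2 (0.437), feedback inhibitors of the pathway, Nfib (0.548) and the glucocorticoid receptor gene Nr3c1 (0.632). Among other milk products they belonged to Fabp3, a fatty acid binding protein gene of mammary gland and muscle (0.000245, adjusted p = 0.341), Lcn2 (0.103), Olah (0.487) and Xdh (0.623). In the third list they belonged to Ugp2 (0.424), Pgm1 (0.705) and Slc30a4 (0.725). Between BPA25+I3C and BPA25, the prolactin list had 11 of 13 genes higher and 2 lower (median 0.32, beside 0.13 over all genes), with 0 past the threshold. At an unadjusted p under 0.05 the count was also 0, beside 4.32% of all genes. The mean of that list was 0.38 on the BPA25 array of slide 3 and 1.23 to 1.37 on the other BPA25 arrays. In BPA25+I3C, which had no array on slide 3, it ran from 1.04 to 1.62. The part of slide 3 in this shift was not tested. In the same comparison the list of other milk products had 4 higher and 7 lower (median -0.02), with 0 past the threshold, beside 0.0124% of all genes. In that list 2 of 11 genes, Fabp3 and Lcn2, were lower at an unadjusted p under 0.05, beside 1.72% of all genes. The lactose list had 5 higher and 1 lower (median 0.07), with 0 past the threshold. Fabp3 did not keep its sign at the higher BPA dose. Its log2 fold change was -1.47 between BPA25+I3C and BPA25 and 1.64 between BPA250+I3C and BPA250. Lcn2 was lower in both, by -1.38 and -0.25.

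Some genes of these lists are named for their known role, with their values already seen. The prolactin receptor gene Prlr gave signal on 23 of 35 arrays and Stat5a on 35, against 34 arrays for Csn2 and 33 each for Csn1s1 and Lalba. Since probes differ in binding, arrays without Prlr signal are not shown to lack its RNA. The alveolar regulator Elf5 gave signal on 9 arrays and Erbb4 on 6, and neither was tested. B4galt1, the partner of alpha-lactalbumin, gave signal on 35 arrays and had an F test p of 0.968 (adjusted p = 1.0). The casein Csn1s2b gave signal on 9 arrays, the milk fat globule gene Btn1a1 on 6 and Wfdc18 on 4, so that these late products were, like Wap and Csn1s2a, mostly not well above background.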

How the data were processed

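Gene expression was measured in 35 mammary glands on 1-colour (Cy3) Agilent rat arrays. Per the file headers, the authors' scanner output holds a processed signal as an intensity with the local background subtracted, and other columns with 0 or 1 flags. Agilent Feature Extraction 9.5.3.1 is named in the submitters' processing notes. The authors also deposited normalised log2 values of the same arrays with column medians from 6.55 to 6.58 and 194 missing values, whose normalisation method is not given in the sources used here.

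Log2 of the processed signal was scaled to each array's 75th percentile, outlier spots were set to missing, and 263 probes spotted 10 times were averaged. Probes were named through RefSeq symbols (GRCr8) for 20042 of 41012 probes. The others kept the array's name. A probe was kept if well above background on at least 4 of 5 arrays of at least 1 group, and the brightest stood for its gene (16162 genes). Missing values were left missing in the fit, and no milk gene had any. Groups were fitted in R 4.3.3 by limma 3.58.1, with Benjamini-Hochberg adjustment over all genes and a threshold of 0.05, after a test on simulated data. Fold changes are on the log2 scale and near background understate a change. Correlations used scipy 1.17.1. The number of arrays limits the precision.

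Same-numbered samples did not deviate together in every pair (correlation of deviations -0.395 to 0.944, median 0.21), so replicate numbers were not used as pairs. Named genes were the 7 milk genes, the 5 genes most like each tested one, and up to 4 genes of smallest F test p per lactation list. Alternatives were other background corrections, scalings, filters, blocks and left-out arrays. The members and lists were chosen with earlier results of these data known.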

Additional observations from a re-analysis of the deposited data

Results flagged for a closer look

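Levels of the 5 tested genes were examined for single arrays far from their group in 35 sets of 5 arrays, where chance alone gives about 1 such array in 20 sets. There were 3. Csn1s1 stood at -0.15 in control replicate 2, with the nearest control at 1.63. That array lies on slide 3, the slide that stands apart. Csn3 stood at -2.63 in BPA25+I3C replicate 1, with the nearest array of the group at -4.1, and no array of that group was well above background. Glycam1 stood at 3.35 in control replicate 3, with the nearest control at -0.61, and the lymphoid list had its highest control level, 1.34, on the same array.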

How the results depend on the processing

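No milk gene passed in any alternative except with slide as a random block (correlation within slides 0.584), where 1 passed in the F test and 1 in BPA250+I3C against control, Csn3 in both, a gene kept by the filter through control and BPA25+genistein; the cause was not tested. The replicate block changed no call of a milk gene (0 passed), and over all genes and comparisons 6 calls were made with it against 3 without. The I3C differences of Csn3, Csn1s1 and Lalba kept their sign in all alternatives, but their size depended on the processing. For Csn3 against control they ran from -2.82 to -0.64 in BPA25+I3C and from -2.45 to -0.54 in BPA250+I3C. The unadjusted F test p of Csn3, 0.000124 in the main processing, was 0.0758 with normexp background correction and 0.00503 with slide as a fixed block. Small differences turned sign, and for these the cause was not tested. For BPA250 against BPA25, Csn2 was at 0.078 with normexp, 0.020 with quantile scaling, 0.087 with the percentile over probes detected on all arrays, 0.038 with scan day as a block and 0.017 without slide 3. Csn1s1 was at -0.20 with normexp. Lalba was at -0.24 with normexp, -0.078 with quantile scaling, -0.16 in the authors' deposited table, -0.29 with slide as a fixed and -0.22 as a random block. Glycam1 was at 0.45 with scan day as a block. Against control, BPA25 gave 0.23 (Csn3) and 0.013 (Lalba) with normexp and 0.056 (Lalba) in the deposited table, and BPA250 gave 0.089 (quantile) and 0.075 (deposited table) for Csn1s1. Csn3 with genistein at the low BPA dose was at -0.45 with normexp and -0.034 in the deposited table. With 1 array left out, BPA250 against BPA25 ran from -0.43 to 0.18 (Csn2), -0.27 to 1.03 (Csn1s1), -0.43 to 0.64 (Lalba) and -1.80 to 0.40 (Glycam1). Against control, BPA25 ran from -1.16 to 0.14 (Csn1s1) and -0.91 to 0.16 (Lalba), and BPA250 from -0.55 to 0.084 (Csn1s1) and -0.72 to 0.0013 (Lalba). Of the 10 pairs of milk genes 3 passed, 4 with slide means removed (Lalba with Glycam1 added) and 5 without slide 3, where Glycam1 with Csn1s1 (r = 0.412) and with Lalba (r = 0.429) were added. Of the 25 relations to marker lists 9 passed, 11 without slide 3 (Csn2 with adipocyte and Glycam1 with luminal added), 9 with slide means removed (Csn2 and Lalba with lymphoid in place of Csn2 with basal and Csn1s1 with lymphoid) and 7 without the 2 farthest arrays. Signal near background limits Csn3, Wap and Csn1s2a.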
